A study of Myotis pilosus with 4 samples.

Results

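The miR-181 3p arms are 3 of the mature miRNAs listed (119 conserved and 77 bat-specific) for the bat Myotis ricketti (labelled Myotis pilosus), namely miR-181a-3p, miR-181b-3p and miR-181c-3p. They were chosen by name and looked up by their mature sequences among the small RNA tags of 4 libraries, where a tag is a distinct clean sequence with its read count. Adult bats in 2 states gave whole brain and white adipose tissue (WAT). HB (brain) and HA (WAT) were from bats in hibernation, whose bodies were near 9°C while the surroundings were at 7°C, whereas AB (brain) and AA (WAT) were from active bats, labelled as aroused, whose bodies were near 36°C at 21°C. Each library was a single pool of total RNA from 3 bats, mixed at 10 μg per bat, with brain and WAT taken from the same 6 bats, so that HB and HA share their bats, as do AB and AA. There are no replicates, no spread between bats and no p-value. Capture of the active animals was in October and that of the hibernating ones in the next March, so that state and season cannot be told apart.

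A miRNA hairpin carries a mature sequence in each of its 2 arms, called 5p and 3p. Usually the arm that is loaded into Argonaute (the guide) accumulates and its partner (the star or passenger strand) is degraded. The miR-181 family is conserved among vertebrates, its 5p arms are the usual guides and share their seed, the bases 2 to 8 that pair with target mRNAs, and the family is known from brain, from developing lymphocytes and from blood vessels. The 3p arms are the usual star strands, and their seeds are different from those of the 5p arms. The 5p arms are not among the listed sequences and were not analysed here.

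The listed sequences of the 3 arms are shown because each count rests on them, with the seed in capitals.
miR-181a-3p: aCCACCGAccgttgactgtacc
miR-181b-3p: aCCATCGAccgttgagtggac
miR-181c-3p: aCCATCGAccgttgattgtac
miR-181b-3p and miR-181c-3p shared the seed, and they differed by the substitutions G16T and G19T, counted from the first base of miR-181b-3p. miR-181a-3p differed from miR-181b-3p by C5T, C16G and T19G, and from miR-181c-3p by C5T and C16T, so that its seed was different by 1 base. The names are those of the study. In mammals, the sequence listed here as miR-181c-3p is close to the one usually named miR-181a-3p, and the sequence listed as miR-181b-3p is close to the one usually named miR-181c-3p, so the letters do not carry over to other species. Which hairpin or locus each sequence comes from was not checked here.

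Each library held 10007650 to 12159756 clean reads, and tags were 18 to 30 nt long. HA stood apart from the other libraries, with 1160810 unique tags against 411552 to 629437, 6.85% of reads over 25 nt against 0.505 to 0.937%, and 13.2% of reads identical to a listed miRNA against 20.9 to 24.0%. The paper also lists a larger share of rRNA among the genome-matched reads of HA than in HB, AB or AA. Whether these properties of HA played a part in its values below was not tested. The neuronal miR-124a-3p had 449967 reads in AB and 415697 in HB, against 292 in AA and 286 in HA, and miR-9-3p had 2918, 2070, 11 and 3 reads in the same order. The muscle miRNA miR-1-3p reached 202291 reads in AA and 196202 in HA against 14019 in AB and 21968 in HB, and the blood cell miRNAs miR-142-3p, miR-142-5p and miR-486-5p were each higher in both WAT libraries than in both brain libraries. The other muscle miRNAs, miR-133-3p and miR-206-3p, were highest in AA, with 331 and 6139 reads. In whole tissue, fewer cells of a type and less RNA per cell cannot be told apart.

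Counted by the listed sequence alone, the 3 arms were rare, and they were more frequent in brain than in WAT. miR-181a-3p had 60 reads in HB and 69 in AB, with 12 in HA and 40 in AA. miR-181b-3p had 35, 13, 2 and 1 reads in the same order. miR-181c-3p had 154 reads in HB and 81 in AB, with 0 in HA and 13 in AA. In ratios, a count of 0 was set to 3 reads, the floor used throughout. By this count, miR-181c-3p was the most frequent of the 3 in both brain libraries and miR-181a-3p in both WAT libraries, whereas miR-181b-3p was the least frequent in HB, AB and AA.

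When all tags that began with the first 18 nt of an arm were counted, the 3 arms together had 4596 reads in place of 249 (HB), 3116 in place of 163 (AB), 576 in place of 14 (HA) and 692 in place of 54 (AA). The factor between the 2 counts was 18.5 in HB and 19.1 in AB, with 41.1 in HA and 12.8 in AA. No tag was assigned to more than 1 of the 3 arms. miR-181b-3p then had 3187 reads in HB and 2092 in AB, with 146 in HA and 408 in AA, miR-181c-3p had 1042, 725, 295 and 156, and miR-181a-3p had 367, 299, 135 and 128. The arm that was rarest by its listed sequence was thus the most abundant of the 3 in HB, AB and AA. Among the listed miRNAs, miR-181b-3p moved from place 108 to place 40 by read count in HB, and from place 163 to place 75 in AA.

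**Figure D1:**
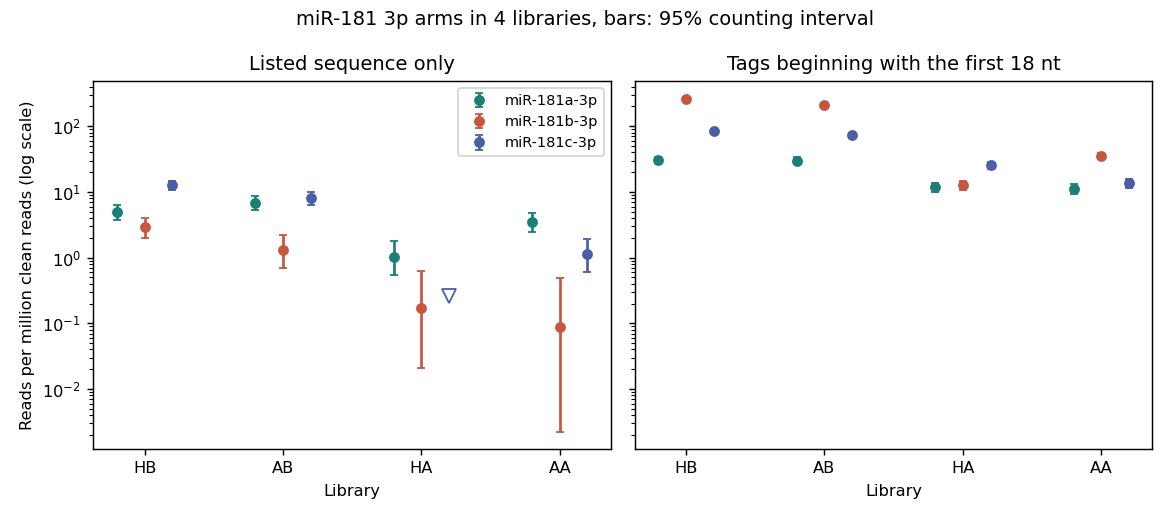
Depth-scaled read count, RPM over clean reads (log scale), of the 3 arms in each library, for the listed sequence alone (left) and for all tags beginning with its first 18 nt (right). Points are single libraries, bars are exact 95% intervals for counting error, and the open triangle marks the floor of 3 reads for miR-181c-3p in HA, which had 0 reads. miR-181b-3p lies lowest of the 3 in HB, AB and AA on the left and highest in them on the right.

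Levels were scaled to depth as RPM, the usual depth-scaled read count, here over all clean reads of the library. By its first 18 nt, miR-181b-3p was at 262 RPM in HB (95% counting interval 253 to 271) and 209 in AB (200.2 to 218). In WAT it was at 35.7 in AA (32.3 to 39.3) and 12.6 in HA (10.7 to 14.9). The level of miR-181c-3p was 85.7 in HB (80.6 to 91.1) and 72.4 in AB (67.3 to 77.9). It was 25.6 in HA (22.7 to 28.6) and 13.6 in AA (11.6 to 15.96). The order of the WAT libraries was thus opposite for these arms. The level of miR-181a-3p was 30.2 in HB (27.2 to 33.4) and 29.9 in AB (26.6 to 33.5), and 11.7 in HA (9.81 to 13.8) and 11.2 in AA (9.34 to 13.3), and within each tissue the states overlapped. Such intervals cover counting error only, since copies made by PCR are not separate molecules and each library pooled its bats.

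The reads of each arm were spread over a few forms, which are printed because they decide the counts. Each is among the 5 commonest tags of its arm over the 4 libraries, taken from the tags with bases 2 to 17 of the arm, with bases 2 to 8 of the tag itself in capitals.
miR-181a-3p, 21 nt: aCCACCGAccgttgactgtac
miR-181a-3p, 18 nt: aCCACCGAccgttgactg
miR-181b-3p, 18 nt: aCCATCGAccgttgagtg
miR-181b-3p, 19 nt with 1 more base at the start: aACCATCGaccgttgagtg
miR-181b-3p, 19 nt: aCCATCGAccgttgagtgg
miR-181b-3p, 22 nt: aCCATCGAccgttgagtggaca
miR-181c-3p, 18 nt: aCCATCGAccgttgattg
miR-181c-3p, 19 nt: aCCATCGAccgttgattgt
miR-181c-3p, 22 nt: aCCATCGAccgttgattgtacc
miR-181c-3p, 20 nt with 1 more base at the start: aACCATCGaccgttgattgt

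The 18-nt form of miR-181b-3p had 2546 reads in HB and 1590 in AB, with 85 in HA and 294 in AA. It held 63.0% of all reads with bases 2 to 17 of the arm, whereas the listed 21-nt sequence held 51 of 7162 reads (0.712%, exact 95% interval 0.531 to 0.935%). Among the tags beginning with the first 18 nt, 18-nt tags made up 79.9% in HB (78.5 to 81.3%) and 76.0% in AB (74.1 to 77.8%), with 58.2% in HA (49.8 to 66.3%) and 72.1% in AA (67.4 to 76.4%). This share was the highest among all listed miRNAs of 20 nt or more with at least 50 such reads, which numbered 105 (HB), 106 (AB), 98 (HA) and 96 (AA) and had medians of 1.68, 1.36, 0.862 and 1.40%. Because tags under 18 nt were not kept, shorter forms of the arm could not be counted.

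miR-181c-3p had no such single form. Tags of 18 nt made up 22.6% in HB (20.1 to 25.3%) and 28.6% in AB (25.3 to 32.0%), with 40.3% in HA (34.7 to 46.2%) and 32.1% in AA (24.8 to 40.0%), and the profile had a further rise at 21 and 22 nt in brain. Tags that carried the whole listed sequence made up 33.2% in HB (30.3 to 36.2%) and 30.3% in AB (27.0 to 33.8%) but 3.05% in HA (1.40 to 5.71%) and 14.1% in AA (9.05 to 20.6%). In HA, the arm had 119 reads of the 18-nt form, 55 reads of the 19-nt form, 4 reads of the 22-nt form and 0 reads of the listed 21-nt sequence. Tags of 21 nt or more still held 88 of its 295 reads in HA (29.8%, 24.7 to 35.4%), against 23.7% in AA (17.3 to 31.2%). Those of 23 nt had 33 reads in HA. Only 9 reads in HA carried the whole listed sequence, so most of these long tags departed from it. The count of 0 stood beside 295 reads of tags with the same first 18 nt. Over the listed miRNAs of 20 nt or more, the median share of tags with the whole listed sequence was 52.3% in HB and 62.6% in AB, with 65.6% in HA and 59.3% in AA.

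miR-181a-3p was mostly long. Tags of 21 nt or more made up 62.7% in HB (57.5 to 67.6%) and 60.9% in AB (55.1 to 66.4%), with 52.6% in HA (43.8 to 61.2%) and 61.7% in AA (52.7 to 70.2%), and these intervals overlapped. Its listed 22-nt sequence held 16.3% in HB (12.7 to 20.5%) and 23.1% in AB (18.4 to 28.3%), with 8.89% in HA (4.68 to 15.01%) and 31.2% in AA (23.4 to 40.0%). The share of the listed form was lower in HA than in AA, a difference that was not set beside those of the other listed miRNAs. For comparison, tags of 21 nt or more made up 6.59% of miR-181b-3p in HB and 47.0% of miR-181c-3p in HB.

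**Figure D2:**
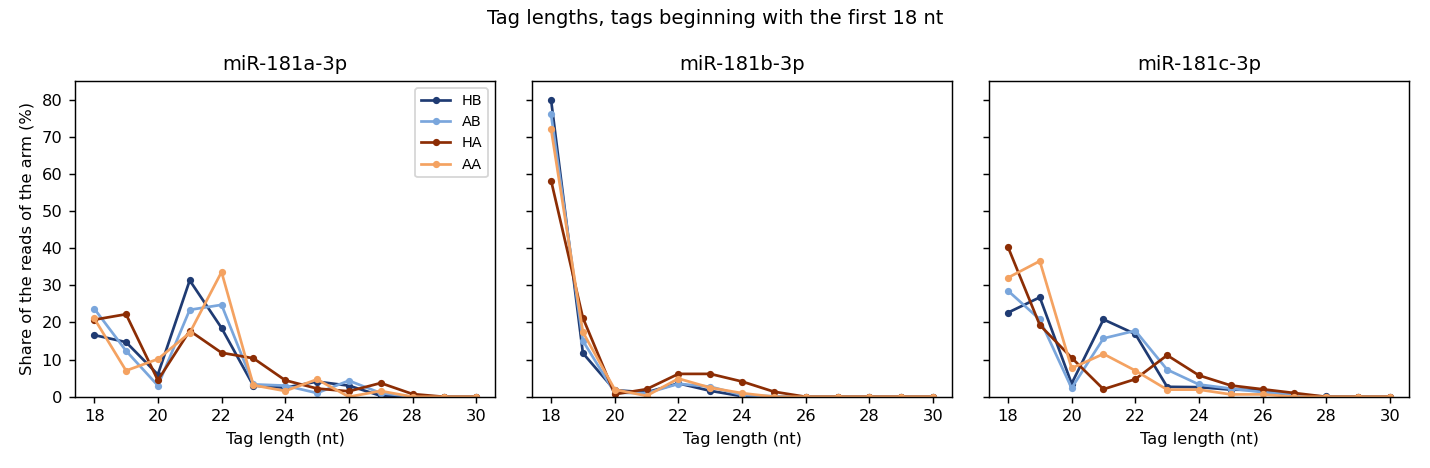
Length of the tags that began with the first 18 nt of each arm, as the share of the arm's reads in each library (lines). Tags of 18 nt hold 58.2 to 79.9% of miR-181b-3p, whereas miR-181a-3p and miR-181c-3p in brain have a further peak at 21 to 22 nt that is low for miR-181c-3p in HA.

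Some tags began 1 base before the listed start. They made up 17.7% of the reads with bases 2 to 17 of miR-181b-3p over the 4 libraries (16.9 to 18.6%). By library this was 16.4% in HB (15.3 to 17.6%) and 18.7% in AB (17.2 to 20.3%), with 26.1% in HA (20.2 to 32.8%) and 19.3% in AA (15.97 to 23.0%). For miR-181c-3p they made up 6.90% (5.92 to 7.98%), and for miR-181a-3p 4 of 938 reads (0.426%, 0.116 to 1.09%). The longer start moves the seed by 1 base, so that the seed of these tags is ACCATCG in place of CCATCGA. Over the 3 arms together, CCATCGA took 79.5% (HB) and 76.5% (AB) in brain, and 68.0% (HA) and 70.2% (AA) in WAT. ACCATCG held 13.2, 14.9, 10.6 and 13.3% in the same order, and CCACCGA, the seed of miR-181a-3p, held 6.89, 8.09, 20.7 and 15.9%. The seed of miR-181a-3p thus took a larger share in WAT than in brain.

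Within their first 18 nt, miR-181b-3p and miR-181c-3p differ at base 16 alone. Of the tags with the other 17 of these bases, 5833 reads had G at this position, 2218 had T, 9 had C and 0 had A. In HA, 146 reads had G, 295 had T, 1 had C and 0 had A. The commonest other single substitution in the first 18 nt of miR-181b-3p, T17C, had 78 reads or 1.34% of the arm's reads. The part of sequencing errors in these counts was not tested.

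The first comparison asked whether the arms differed between hibernating and active brain. By the first 18 nt, all 3 ratios were under 1 on the log2 scale. miR-181b-3p had a log2 ratio of HB to AB of 0.35 (95% counting interval 0.27 to 0.43), miR-181c-3p of 0.26 (0.12 to 0.40) and miR-181a-3p of 0.03 (-0.19 to 0.26), each scaled by the trimmed mean of M-values (TMM) over the listed miRNAs. Thus 0 of 3 arms reached a size of 1 on this scale, against 27.8% of 176 listed miRNAs with 10 or more reads. Here and below, listed miRNAs that begin with the same 18 nt have the same counts by this rule and were each counted in such shares. They also each entered the scaling between libraries by this rule, so that summed reads of the listed miRNAs hold their shared tags more than 1 time. The quartiles of those 176 were -0.65 and 0.45, and all 3 arms lay between them. The slightly higher levels of miR-181b-3p and miR-181c-3p in HB exceeded counting error, but without replicates they cannot be set against the spread between bats.

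By the listed sequence, the brain ratios were larger and less precise. miR-181b-3p had 1.44 (0.48 to 2.48), miR-181c-3p 0.94 (0.54 to 1.34) and miR-181a-3p -0.19 (-0.72 to 0.33). Then 1 of 3 arms reached a size of 1, against 40.5% of 153 listed miRNAs in either direction and 22.9% that were higher in HB. With TMM over the conserved miRNAs alone, miR-181c-3p had 1.07. Here and below, shares over all listed miRNAs were counted only with TMM over all of them. The ratio of miR-181b-3p rested on 35 and 13 reads, and the sum of its tags with bases 2 to 17, 3848 reads in HB and 2602 in AB, gave 0.39 (0.32 to 0.46).

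The second comparison asked the same in WAT, where the arms went different ways. miR-181b-3p was lower in hibernating WAT, with 146 reads in HA and 408 in AA and a log2 ratio of -1.24 (-1.52 to -0.97). miR-181c-3p was higher, with 295 reads in HA and 156 in AA and a log2 ratio of 1.16 (0.88 to 1.45). miR-181a-3p, with 135 and 128 reads, had 0.32 (-0.04 to 0.68), a difference that was not detectable at this depth. A ratio of 1 or more in size was found for 2 of 3 arms, 1 in each direction, against 50% of 162 listed miRNAs in either direction, 21% higher and 29% lower in HA, so that ratios of this size were common in this pair of libraries. miR-181b-3p was at place 28 from the lowest and miR-181c-3p at place 28 from the highest of the 162 ratios. Both intervals reached below 1 in size. Under other scalings 1 of these ratios fell below 1 in size. It was 0.91 for miR-181c-3p when scaled to clean reads. It was -0.93 for miR-181b-3p when scaled to the summed reads of the listed miRNAs.

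By the listed sequence, the log2 ratio of HA to AA was -1.40 for miR-181a-3p (-2.47 to -0.44). miR-181c-3p, with 0 reads in HA against 13 in AA, was 3.43-fold lower in HA with the 0 set to the floor of 3 reads. Such a bound leaves out the counting error of the other library, here of the 13 reads. With TMM over the conserved miRNAs alone, the log2 ratio of miR-181a-3p was -0.62 and the bound of miR-181c-3p was -1.001. No ratio was given for miR-181b-3p, with 2 and 1 reads. Here 49.3% of 142 listed miRNAs were 1 or more in size, which was made up of 20.4% that were higher and 28.9% that were lower in HA. The direction of miR-181c-3p in WAT therefore depended on the tags counted: its listed sequence was lower in HA and the sum of its tags was higher. For miR-181a-3p, the listed 22-nt sequence was lower in HA, while the ratio of the sum of its tags was within counting error.

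**Figure D3:**
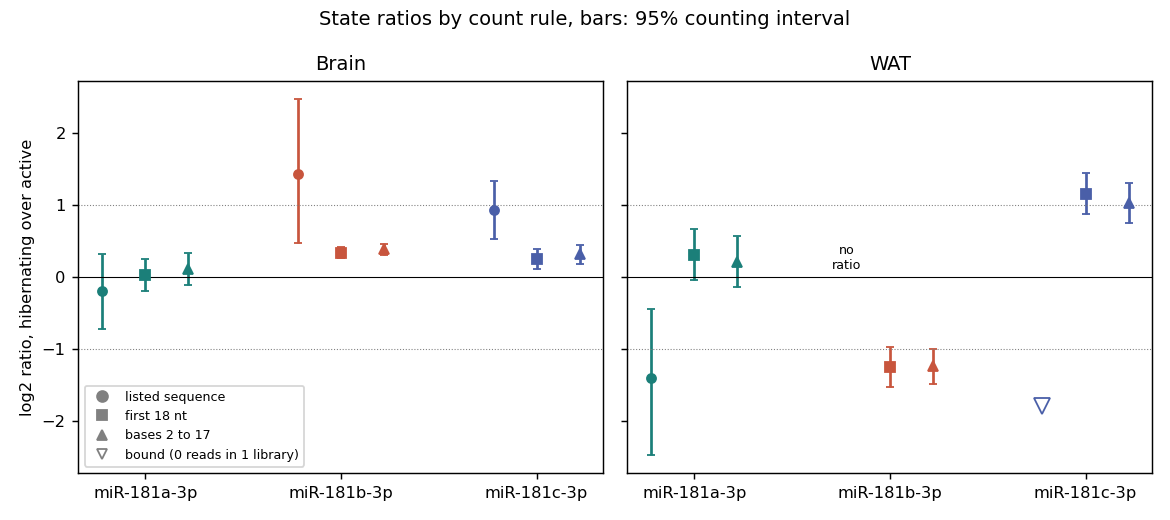
Log2 ratios of hibernating over active libraries for the 3 arms in brain (left) and WAT (right), with a symbol for each count rule and bars for the exact 95% counting interval; dotted lines mark a log2 size of 1. In WAT, miR-181b-3p lies at -1.24 and miR-181c-3p at 1.16 by the first 18 nt, while the open triangle shows miR-181c-3p with 0 reads of its listed sequence in HA.

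The balance between arms within a library does not depend on the scaling between libraries. By the first 18 nt, the reads of miR-181b-3p over those of miR-181c-3p were 3.06 in HB, 2.89 in AB and 2.62 in AA but 0.495 in HA. On the log2 scale these were 1.61 (1.51 to 1.72), 1.53 (1.41 to 1.65), 1.39 (1.12 to 1.66) and -1.01 (-1.31 to -0.72). HA, the library that also stood apart in its unique tags and long reads, was thus the 1 library in which miR-181c-3p exceeded miR-181b-3p by this count, and the part of those properties was not tested. The difference in this balance was -2.40 between HA and AA (-2.81 to -1.998) and 0.08 between HB and AB (-0.08 to 0.24), so that by this count the difference in brain was within counting error. Between the active tissues, AB and AA, it was 0.14 (-0.16 to 0.44).

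Of the reads of the 3 arms, miR-181b-3p held 69.3% in HB (68.0 to 70.7%), 67.1% in AB (65.5 to 68.8%) and 59.0% in AA (55.2 to 62.7%) but 25.3% in HA (21.8 to 29.1%). miR-181c-3p held 22.7% in HB, 23.3% in AB and 22.5% in AA and 51.2% in HA (47.0 to 55.4%). miR-181a-3p held 7.99% (HB) and 9.60% (AB) in brain, against 23.4% (HA) and 18.5% (AA) in WAT. By the listed sequence, the composition was different. There miR-181c-3p exceeded miR-181b-3p in HB (154 and 35 reads), AB (81 and 13) and AA (13 and 1). In HA, miR-181c-3p had 0 reads and miR-181b-3p had 2, of 14 in all.

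The balance was also taken within tags of the same length, since the arms had different length profiles. Among 18-nt tags, miR-181b-3p over miR-181c-3p was 10.8 in HB, 7.68 in AB, 5.88 in AA and 0.714 in HA. Among tags of 20 nt or more, it was 0.507 in HB, 0.510 in AB, 0.878 in AA and 0.252 in HA, so that miR-181c-3p exceeded miR-181b-3p in HB, AB and HA and in AA the interval of the log2 ratio held 0 (-0.81 to 0.43). Among tags that began 1 base before the listed start, miR-181b-3p stayed above miR-181c-3p in HA as well, with 52 and 17 reads against 99 and 9 in AA. The difference between HA and AA was below 0 in each of these classes, at -3.04 (-3.66 to -2.42) for 18-nt tags, -1.80 for tags of 20 nt or more and -1.85 (-3.29 to -0.48) for the tags with the longer start. In brain, the difference between HB and AB was outside counting error in some classes and changed sign between them, with 0.49 (0.20 to 0.78) for 18-nt tags, -0.29 (-0.52 to -0.05) for tags of 19 nt or more and -0.37 (-0.60 to -0.14) for tags with bases 4 to 19.

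**Figure D4:**
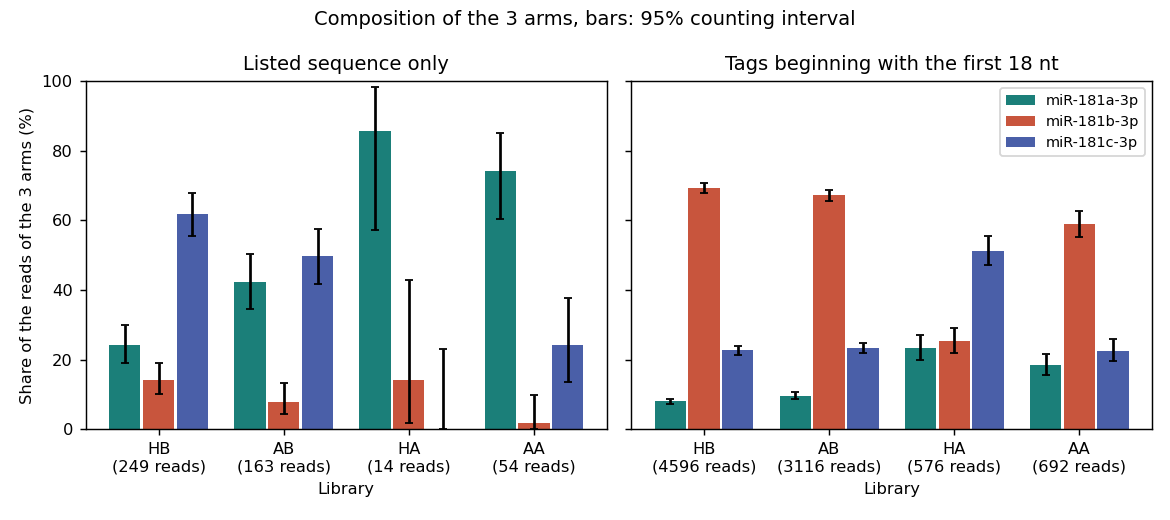
Share of each arm in the reads of the 3 arms (%), by library, for the listed sequence alone (left) and for tags beginning with the first 18 nt (right); error bars are exact 95% counting intervals and the reads per library stand under each group. On the right, miR-181b-3p holds 59.0 to 69.3% in HB, AB and AA, and in HA miR-181c-3p leads with 51.2%.

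Brain was compared with WAT in each state. In the active state, the log2 ratio of AB to AA by the first 18 nt was 2.42 for miR-181b-3p (2.27 to 2.58), 2.28 for miR-181c-3p (2.03 to 2.54) and 1.29 for miR-181a-3p (0.98 to 1.60). All 3 arms were 1 or more higher in brain, against 37.1% of 175 listed miRNAs, and 72% were so in either direction. With TMM over the conserved miRNAs alone, the ratio of miR-181a-3p was 0.94 and thus under 1. In hibernation, the ratio of HB to HA was 4.27 for miR-181b-3p (4.03 to 4.52), a 19.3-fold difference, 1.64 for miR-181c-3p (1.46 to 1.83) and 1.27 for miR-181a-3p (0.98 to 1.56), against 38.8% of 178 listed miRNAs that were 1 or more higher in HB. Scaled to the summed reads of the listed miRNAs, these were 3.66, 1.03 and 0.65, so that miR-181a-3p was then under 1. By the listed sequence, the ratios of AB to AA were 0.89 for miR-181a-3p (0.30 to 1.49), 3.80 for miR-181b-3p (1.07 to 9.21, from 13 reads and 1 read) and 2.74 for miR-181c-3p (1.89 to 3.71), where 38.4% of 159 were 1 or more higher in AB. Those of HB to HA were 2.15 for miR-181a-3p (1.24 to 3.18) and 3.96 for miR-181b-3p (2.00 to 7.06). miR-181c-3p, with 154 and 0 reads, was 45.6-fold higher in HB with the 0 set to the floor of 3 reads, which leaves out the counting error of the 154 reads. Here 40.9% of 159 were 1 or more higher in HB, and 76.1% in either direction.

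The tissue differences of the arms were set beside those of neuronal miRNAs. In the active state, by the first 18 nt, all 9 of a list of neuronal miRNAs (among them miR-124a-3p, miR-124b-3p, miR-129-3p and miR-9-3p, the first 2 of which begin with the same 18 nt and have the same counts) were 1 or more higher in AB than in AA, against 37.1% of the 175 listed miRNAs. The lowest ratio was 2.46. The median was 6.45, a bound because the middle member had 0 reads in AA and entered at the floor of 3 reads. All 9 were so in HB against HA, against 38.8% of 178, with a lowest ratio of 1.51 and a median of 6.68 that was likewise a bound. The median over all listed miRNAs was -0.09 and 0.08. The ratios of miR-181a-3p, miR-181b-3p and miR-181c-3p between AB and AA were each below the lowest of the 9, whereas between HB and HA those of miR-181b-3p and miR-181c-3p were above the lowest. Between AB and AA, the counting intervals of miR-181b-3p and miR-181c-3p held the lowest ratio of the list. Between HB and HA, so did that of miR-181c-3p. Between states in brain, 0 of the 9 neuronal miRNAs were 1 or more in size, against 27.8% of 176, with a median of 0.15.

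A list of 13 other 3p arms whose 5p partner is the usual guide (among them miR-30c-3p, miR-135-3p, miR-125-3p and miR-30b-3p, and with 1 member, miR-138-3p, that is also in the neuronal list) was set beside the miR-181 arms. In brain, 10 of the 13 had 10 or more reads by the first 18 nt, 1 was 1 or more higher in HB and 0 lower (27.8% in either direction over all listed miRNAs), and their median log2 ratio was -0.21. In WAT, 9 had 10 or more reads, 1 was 1 or more higher and 2 lower in HA (50% in either direction over all), and the median was -0.71, against 0.08 over all listed miRNAs. Between AB and AA, 4 of 9 were 1 or more higher and 1 lower in brain, with a median of 0.96, where 37.1% of all listed miRNAs were higher and 34.9% lower. Between HB and HA, 6 of 11 were higher and 3 lower, with a median of 1.47, where 38.8% of all were higher and 38.8% lower.

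**Figure D5:**
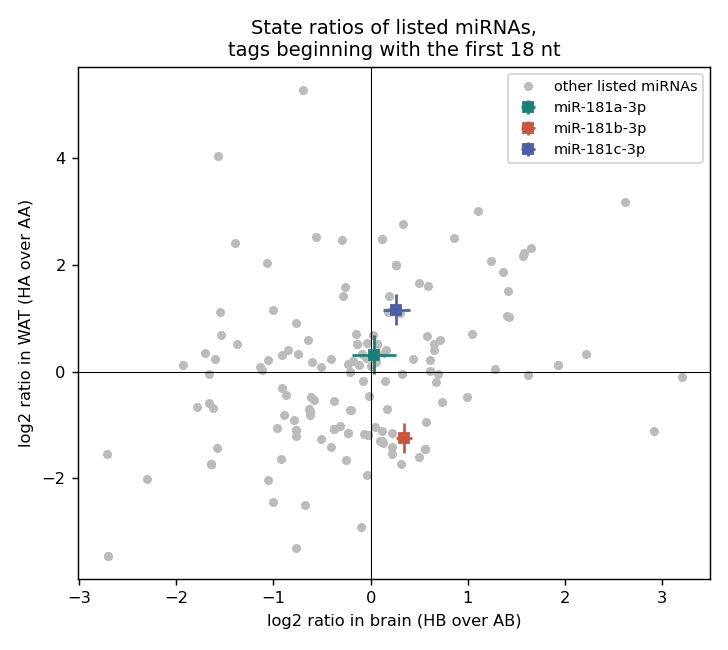
Log2 ratio between states in brain (x axis) and in WAT (y axis) for the 156 listed miRNAs with 10 or more reads in both pairs of libraries, by the first 18 nt; squares with 95% counting intervals are the 3 arms. In brain the arms lie between 0.03 and 0.35, and in WAT they range from -1.24 to 1.16, within the cloud of the other miRNAs.

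The profile of each arm over the 4 libraries was compared with those of 158 other listed miRNAs with 100 or more reads by the first 18 nt, as the Euclidean distance of centred log2 RPM. Nearest to miR-181c-3p was miR-221-5p, at a distance of 0.24 against a median of 3.53, with 10995 (HB), 8122 (AB), 3704 (HA) and 2018 (AA) reads. Next were miR-285-2-5p at 0.59 and miR-181a-3p at 0.92, then miR-744-5p and a bat-specific miRNA. Nearest to miR-181b-3p was miR-381-3p at 0.59 against a median of 4.39, followed by miR-218a-5p and miR-218b-5p, which shared all their tags and thus their counts, miR-129-3p and miR-381-5p. miR-181c-3p, with the same seed, came at place 26, at a distance of 2.19. For miR-181a-3p, miR-285-3p and miR-29-5p were both at 0.53, before miR-29-3p at 0.65, a bat-specific miRNA and miR-7a-5p. Each profile has only 4 points, 1 per library, so the distances are descriptions of these libraries.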

How the data were processed

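Small RNA of whole brain and WAT was sequenced as 4 Solexa libraries. The gel selection was from 18 nt to 33 nt per the methods and to 30 nt per the labels. The RIN of the brain pools was 8.3 (HB) and 8.1 (AB), and that of the WAT pools 8.4 (HA) and 7.5 (AA). Adapters and reads of low quality were taken out by the authors, who collapsed identical reads and deposited raw read counts per tag, without normalization. The tool used for trimming is not given in the sources used here.

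The listed mature sequences were read from the study's supplement (sequences only). Counts used the tag identical to a sequence, tags beginning with its first 18 nt, or tags containing its bases 2 to 17. Of the listed miRNAs, 119 were conserved and 77 bat-specific. For log2 ratios, edgeR 4.0.16 under R 4.3.3 gave TMM factors over all listed miRNAs of each pair and count rule, with exact Clopper-Pearson 95% intervals. The difference in balance between libraries used the conditional exact interval of the odds ratio. A count of 0 was set to a floor of 3 reads, and no ratio was given where both libraries had 3 reads or fewer. The study used edgeR with an exact test; with 1 library per condition no p-value was calculated. miRNAs with 10 or more reads in a pair and a log2 size of 1 or more were counted. In the comparison of profiles, 0.5 reads were added. DESeq2 1.42.0 gave an alternative scaling. Intervals were computed with SciPy 1.17.1 and NumPy 2.4.6, tables with pandas 2.3.3 under Python 3.11.15, and plots with Matplotlib 3.10.9. Simulated counts with known folds served to test the calculation of the ratios. They held counting error alone, without spread between bats or copies made by PCR.

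The arms and lists were chosen with earlier results of these data known. The named miRNAs follow a rule: the 3 arms, up to the 5 commonest tags of each arm, the 5 nearest profiles of each arm, up to 4 members of each list with the most reads and the tissue markers. miR-138-3p is named because it is in both lists. The balance of the arms, the length classes, the base at position 16 and the tags ending in GAAC were chosen after the values were seen. The labels call the active state aroused.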

Additional observations from a re-analysis of the deposited data

Results flagged for a closer look

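The log2 ratio between states of miR-181b-3p, by tags beginning with its first 18 nt, was 0.35 in brain and -1.24 in WAT. It is given here because the ratios of the 2 tissues pointed in opposite directions with both counting intervals away from 0. With 1 library per condition, the difference between tissues was not tested.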

How the results depend on the processing

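Of 162 values of the ratios and forms under other settings, 134 stayed within the counting interval of the reported value (for a bound, within 1.5 times), 26 moved outside it and 2 turned the direction of a reported ratio of 1 or more in size. The 2 that turned it were those of HA against AA by the listed sequence when tags with bases 2 to 17 were counted instead, with 0.22 for miR-181a-3p and 1.04 for miR-181c-3p. Smaller ratios were not counted as turned. That of miR-181a-3p in HB against AB changed sign within its interval. It was -0.07 by the first 18 nt with TMM over the conserved miRNAs. It was 0.12 when tags with bases 2 to 17 replaced its listed sequence. The same change of tags gave 0.39 for miR-181b-3p and 0.32 for miR-181c-3p in HB against AB, 1.06 for miR-181a-3p and 1.49 for miR-181c-3p in HB against HA, and, in place of the first 18 nt, 3.91 for miR-181b-3p in HB against HA. Scaling to the summed reads of the listed miRNAs gave, by the first 18 nt, 0.44 for miR-181b-3p in HB against AB, -0.93 for miR-181b-3p and 1.47 for miR-181c-3p in HA against AA, and 0.65, 3.66 and 1.03 for miR-181a-3p, miR-181b-3p and miR-181c-3p in HB against HA. TMM over the conserved miRNAs gave 0.25 for miR-181b-3p in HB against AB, -1.001 for the bound of miR-181c-3p by the listed sequence in HA against AA, and 0.94, 2.08 and 1.94 for the 3 arms in AB against AA, where DESeq2 scaling gave 1.69, 2.83 and 2.68. Tags with 2 or more reads gave 4.57 for miR-181b-3p and 1.84 for miR-181c-3p in HB against HA. The cause of these shifts was not tested beyond the change of setting itself.

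The balance of miR-181b-3p to miR-181c-3p and its 8 alternatives were chosen after seeing the data. Between HA and AA the difference was -3.04 for 18-nt tags, -1.63 for 19 nt or more, -1.80 for 20 nt or more, -1.85 for the longer start and -1.52 for tags with bases 4 to 19. Between HB and AB it was 0.50 by the listed sequence, 0.49 for 18-nt tags, -0.29 for 19 nt or more and -0.37 for bases 4 to 19, and the last 3 of these had intervals that did not hold 0. The listed sequence gave no value for HA, with 2 and 0 reads. With bases 4 to 19, the listed sequence held 24.9% of miR-181a-3p, 3.58% of miR-181b-3p and 14.4% of miR-181c-3p, and the longer start 11.1% of miR-181b-3p and 8.97% of miR-181c-3p. With 100 or more reads required, the number of listed miRNAs of 1 or more in size fell from 62 to 32 in HB against AB by the listed sequence, from 49 to 28 by the first 18 nt, and by the listed sequence from 70 to 38 in HA against AA, from 119 to 74 in AB against AA and from 121 to 78 in HB against HA.

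No paired analysis was possible because each condition has 1 library, in which the bats that brain and WAT share were pooled, and no test was made. For the same reason no library could be left out. Pooling of bats, the lower limit of 18 nt and low counts of the listed sequences limit what these values show.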

Other observations

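Tags of the 3 arms with a last GAAC were seen in every library. They made up 68 of 929 reads of miR-181a-3p by the first 18 nt (7.32%, exact 95% interval 5.73 to 9.19%), 143 of 2218 reads of miR-181c-3p (6.45%, 5.46 to 7.55%) and 52 of 5833 reads of miR-181b-3p (0.891%, 0.666 to 1.17%). The commonest are printed with these last bases in capitals.
miR-181a-3p, 25 nt: accaccgaccgttgactgtacGAAC
miR-181b-3p, 23 nt: accatcgaccgttgagtgcGAAC
miR-181c-3p, 23 nt: accatcgaccgttgattgtGAAC
Counted from the first base of the tag, the match to the listed sequence ran over 18 to 22 nt for miR-181a-3p. For miR-181b-3p and miR-181c-3p it ran over 18 to 21 nt, so the same end was seen with matches of different length. The match did not always reach this end. In the printed form of miR-181b-3p, a base that is not in the listed sequence at that position stands between them. Among all clean reads, 0.129% in AB to 0.316% in HA ended in GAAC. Over listed miRNAs of 20 nt or more with at least 50 reads by the first 18 nt, the median share was 0% in each library, and miR-181a-3p was at place 2 of 105 in HB, 4 of 106 in AB, 2 of 98 in HA and 2 of 96 in AA. miR-181c-3p was at place 4, 1, 1 and 4 and miR-181b-3p at place 8, 10, 12 and 6 in the same order. In HA, tags with this end made up 11.9% of miR-181c-3p (8.405 to 16.1%), and of the reads longer than the listed sequence over the 4 libraries they made up 50% for miR-181a-3p, 23.4% for miR-181c-3p and 13.8% for miR-181b-3p. The origin of these bases was not tested.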
